A study of Mus musculus with 16 samples.

Results

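Interferon-stimulated genes were followed in cultured mouse embryonic fibroblasts, the cells of connective tissue. Members were the genes of a list of 44 that a microarray probe set names with a single gene symbol, with 1 probe set per gene, the one with the highest mean over 16 arrays. By this rule 38 of the 44 were measured, among 19938 genes in all. Isg15, Ifi204, Ifi47, Igtp and Gbp2 had only a probe set shared with another gene, Ifi44 was not in the annotation used, and these 6 are not analysed here.

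The study crossed a stable cell line with a drug, in 4 groups of 4 plates and 1 array per plate. Control cells were wild-type fibroblasts carrying a scramble short hairpin RNA (shRNA), and knockdown cells stably expressed a shRNA against Atf5, a stress-responsive transcription factor, so both lines carried a hairpin. Plates of both lines received DMSO as vehicle or the proteasome inhibitor MG132 at 1 µM, for 8 h. The labels name 1 line of each kind, without the number of clones behind it, so the hairpin's target and any other difference between the lines cannot be told apart. They do not say that the plates were separate cultures, and the p-values then speak only of the spread among these samples, possibly a technical one.

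Interferons are secreted proteins that bind receptors on neighbouring cells and on the cell that made them. Type I interferon signals through the kinases JAK1 and TYK2 to a complex that holds STAT2 and IRF9 and binds the interferon-stimulated response element in the promoters of its targets. The products of these targets sense foreign nucleic acid, block viral translation, replication and entry, or feed back on the pathway, and many fibroblasts keep a low level of them without infection. Interferon regulatory factors such as IRF1, IRF3, IRF5 and IRF7 can act on similar elements.

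Promoters of some members that hold the letters GAAANNGAAA are shown, to let their elements be set beside their values. The windows of other members, among them Ifi202b, Oasl1, Oasl2 and Lgals3bp, held 0 matches and are not shown. The sequences are from RefSeq (build GRCm38.p6), 250 bases up to the annotated transcript start, read from upstream to downstream on the gene's strand, with matches to GAAANNGAAA on either strand in capitals. Ifit1, Rsad2 and Ifi203 were higher in the knockdown line, Stat2 and Irgm1 were lower, and Ifit3 passed no test.
Ifit1, chr19:34640639-34640888, plus strand: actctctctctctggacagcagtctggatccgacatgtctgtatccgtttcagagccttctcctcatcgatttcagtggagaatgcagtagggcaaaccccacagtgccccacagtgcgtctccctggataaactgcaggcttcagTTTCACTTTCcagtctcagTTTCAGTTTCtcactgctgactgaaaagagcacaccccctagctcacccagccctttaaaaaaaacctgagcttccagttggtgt
Ifit3, chr19:34583279-34583528, plus strand: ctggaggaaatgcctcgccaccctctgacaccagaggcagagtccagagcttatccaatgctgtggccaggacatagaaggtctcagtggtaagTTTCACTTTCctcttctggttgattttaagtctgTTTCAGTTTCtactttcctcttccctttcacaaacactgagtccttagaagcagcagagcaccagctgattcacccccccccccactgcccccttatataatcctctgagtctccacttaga
Rsad2, chr12:26456453-26456702, minus strand: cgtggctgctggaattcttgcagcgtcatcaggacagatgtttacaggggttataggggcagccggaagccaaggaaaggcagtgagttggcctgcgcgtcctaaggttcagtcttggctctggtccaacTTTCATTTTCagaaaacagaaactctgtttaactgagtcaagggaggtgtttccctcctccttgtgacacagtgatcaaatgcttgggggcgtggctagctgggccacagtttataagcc
Ifi203, chr1:173942493-173942742, minus strand: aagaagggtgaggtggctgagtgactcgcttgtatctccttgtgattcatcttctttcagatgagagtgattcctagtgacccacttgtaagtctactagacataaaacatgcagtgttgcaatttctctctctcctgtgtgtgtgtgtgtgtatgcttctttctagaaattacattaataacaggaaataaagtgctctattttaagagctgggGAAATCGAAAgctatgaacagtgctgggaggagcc
Stat2, chr10:128270248-128270497, plus strand: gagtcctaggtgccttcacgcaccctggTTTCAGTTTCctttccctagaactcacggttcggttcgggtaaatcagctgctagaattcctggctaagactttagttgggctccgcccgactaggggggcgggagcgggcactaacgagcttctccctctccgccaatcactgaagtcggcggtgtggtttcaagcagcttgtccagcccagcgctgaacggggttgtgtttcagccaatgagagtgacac
Irgm1, chr11:48871421-48871670, minus strand: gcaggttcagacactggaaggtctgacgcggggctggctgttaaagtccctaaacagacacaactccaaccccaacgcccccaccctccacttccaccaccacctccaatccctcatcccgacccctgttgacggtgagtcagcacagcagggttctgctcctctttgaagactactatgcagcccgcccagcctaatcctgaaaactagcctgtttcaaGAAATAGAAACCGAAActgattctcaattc

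Ifit1 and Ifit3, both on chromosome 19, carried the same pair of letter matches, which began 104 and 85 bases before the start in Ifit1 and 156 and 122 bases before it in Ifit3. In Irgm1 the matches overlapped and began 30 and 24 bases before the start. Rsad2, Ifi203 and Stat2 had 1 match each, which began 120, 35 and 222 bases before their starts. Ifi203 has a second annotated start in the table, and its window held 0 matches. Of the 38 members, 28 matched the promoter table by gene ID, with windows of 300 bases that reach 50 bases past the start. GAAANNGAAA, searched on both strands with overlaps allowed, was present in 15 of these 28 (53.57%) and in 3.99% of the 27025 genes in the table. The gamma-activated site TTCNNNGAA was present in 7 members (25%) and in 9.55% of all genes. The ATF4 and C/EBP composite element TGATGNAA was present in 3 members (10.71%) and in 4.51% of all genes. A match describes letters in a window and does not show that a factor was bound.

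The values are log2 intensities, and array medians lay between 7.71 and 7.82. Across probe sets the correlation r was 0.993 to 0.998 within groups and 0.979 to 0.994 between groups. Atf5 itself, the target of the hairpin, had a log2 difference of knockdown minus control cells of -0.22 ± 0.05 (SE) with vehicle and -0.31 ± 0.05 with MG132 (limma adjusted p = 0.00321 for the former and 0.000148 for the latter). Fibroblast markers had medians of 9.89 to 10.86 per array. Within the groups the arrays lay along a gradient that held 37.8% of the within-group variance, and the 5 lowest on it were control MG132 4, knockdown vehicle 1, control vehicle 1, knockdown MG132 2 and control vehicle 4, with scores of -14.56 to -4.27. Every log2 difference carries the limma standard error, with 4 arrays per group, and a gene is called where the Benjamini-Hochberg adjusted p over all 19938 genes is under 0.05.

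With vehicle, most of the interferon-stimulated genes measured were higher in the knockdown line. The list was chosen with earlier results of these data known, so its counts describe the list and are no independent test. Of the 38 members, 26 were higher and 2, Stat2 and Irgm1, were lower (limma, adjusted p under 0.05), where 21.5% of all genes tested were higher and 17.9% were lower. The members' median log2 difference was 0.525, against -0.01 over all genes. At 2-fold or more, 13 members were higher and 1 was lower, among 390 genes that were higher and 230 that were lower in all. Ifi202b and Ifi203, of the p200 family of DNA-binding proteins, had the largest measured differences of the members, from low levels in control cells, and the RNA sensors Ddx58 and Ifih1 were among those past 2-fold. None of Oas1a, Oas2, Oas3, Mx1 and Mx2 was called.

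**Figure D1:**
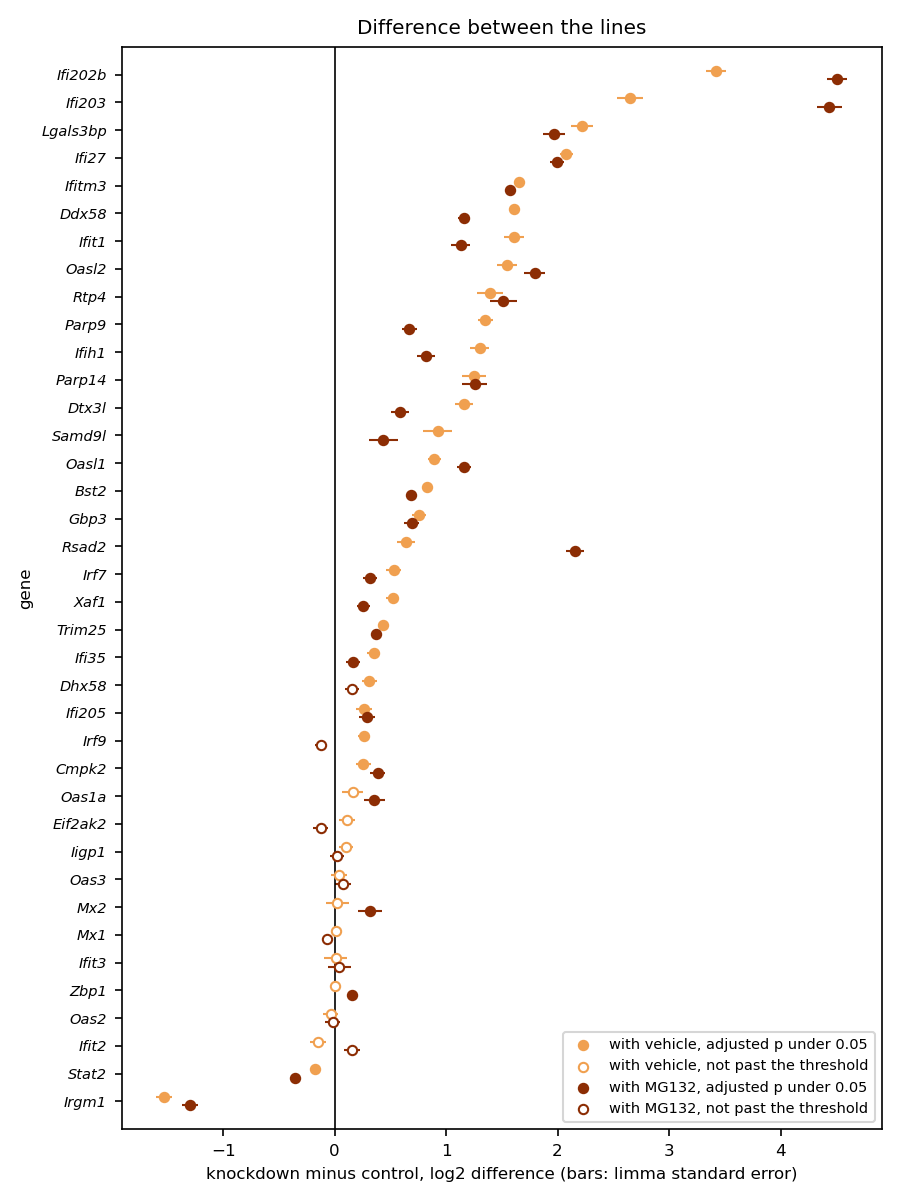
Log2 difference of knockdown minus control cells (x axis) for each of the 38 members (y axis), with vehicle (light) and with MG132 (dark), filled where the limma adjusted p is under 0.05, with bars for the standard error. Most points lie to the right of 0, from 4.51 for Ifi202b with MG132 down to -1.53 for Irgm1 with vehicle.

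The nucleic acid sensors were grouped with Dhx58 and the p200 genes. In this group 6 of 7 members were higher and 1, Zbp1, was not called. Ifi202b, a p200 protein that binds DNA, read 4.50, 4.42, 4.37 and 4.41 on control arrays 1 to 4 and 7.61, 7.95, 7.75 and 8.06 on knockdown arrays 1 to 4. The groups lay far apart, and the difference was 3.42 ± 0.09 (limma adjusted p = 7.28e-15). The control mean of Ifi202b lay at percentile 1.79 of all genes, where a signal above background is not shown, so the size of its difference has no exact fold. Ifi203, another p200 gene, read 5.78, 5.69, 5.73 and 5.57 in control cells and 7.88, 8.52, 8.46 and 8.51 in knockdown cells. Knockdown array 1 lay below the other knockdown arrays and still well above every control array, and the difference was 2.65 ± 0.11 (limma adjusted p = 4.38e-12), with a control mean at percentile 11.7. Ifi205, the third p200 gene measured, was higher by 0.26 ± 0.07 (limma adjusted p = 0.00587), a call that was lost without the 5 arrays lowest on the gradient, and without 4 of them (knockdown MG132 2 kept). These genes are close relatives, and how far their probe sets read each other's transcripts was not tested.

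Ddx58, which encodes the RNA sensor RIG-I, read 9.11, 9.21, 9.29 and 9.16 in control cells and 10.70, 10.80, 10.81 and 10.91 in knockdown cells. Ifih1, which encodes MDA5, a sensor of long double-stranded RNA, read 7.45, 7.54, 7.52 and 7.51 in control cells and 8.59, 8.85, 8.78 and 9.0 in knockdown cells. For both, every knockdown array lay above every control array by more than 1 log2 unit. The differences were 1.61 ± 0.05 for Ddx58 (limma adjusted p = 4.72e-14) and 1.30 ± 0.08 for Ifih1 (limma adjusted p = 6.82e-10). Dhx58, which encodes LGP2, the regulator of these sensors, was higher by 0.31 ± 0.07 (limma adjusted p = 0.000773).

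The regulators did not move together. Stat2, a subunit of the complex that drives these genes, read 9.05, 9.02, 8.99 and 9.06 on control arrays 1 to 4 and 8.83, 8.78, 8.85 and 8.95 on knockdown arrays 1 to 4. All 4 knockdown arrays lay below the control arrays, and the difference was -0.18 ± 0.04 (limma adjusted p = 0.000694). Irf9, its DNA-binding partner, read 8.72, 8.85, 8.77 and 8.82 in control cells and 8.96, 9.04, 9.07 and 9.13 in knockdown cells. Here the knockdown arrays were all the higher ones, by 0.26 ± 0.05 (limma adjusted p = 0.000308). Irf7, which amplifies interferon production, was higher by 0.53 ± 0.06 (limma adjusted p = 2.95e-06).

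The effectors that act on RNA divided by gene. Among these 9 members 3 were higher and 6 were not called. Ifit1, whose product binds the ends of viral RNA, read 7.39, 7.51, 7.32 and 7.36 in control cells and 8.77, 8.99, 9.02 and 9.23 in knockdown cells. The groups did not overlap, and the difference was 1.61 ± 0.09 (3.05-fold, limma adjusted p = 1.35e-10). Oasl2 and Oasl1, relatives of the oligoadenylate synthetases, were higher by 1.55 ± 0.09 and 0.90 ± 0.06. Ifit3 read 7.32, 7.39, 7.24 and 7.29 in control cells and 7.11, 7.43, 7.21 and 7.53 in knockdown cells. Its groups overlapped, and its difference was 0.01 ± 0.10 (limma adjusted p = 0.961). Its promoter holds the letters of both elements of Ifit1. The oligoadenylate synthetases Oas1a, Oas2 and Oas3, which activate RNase L, had differences of 0.16 ± 0.09, -0.04 ± 0.07 and 0.04 ± 0.07, none of them called. Nor were Ifit2 (-0.14 ± 0.07) and Eif2ak2, the kinase PKR that halts translation (0.11 ± 0.07).

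Of the 6 effectors that act on replication and membranes, 4 were higher. Ifitm3, which hinders virus entry through endosomes, read 11.11, 11.15, 11.08 and 11.17 in control cells and 12.72, 12.80, 12.79 and 12.80 in knockdown cells. The arrays of each group lay within a narrow band, and the difference was 1.65 ± 0.04 (3.14-fold, limma adjusted p = 2.65e-15). Bst2, which encodes tetherin, was higher by 0.83 ± 0.04, Rsad2, which encodes the antiviral enzyme viperin, by 0.64 ± 0.08, and Cmpk2, a nucleotide kinase beside Rsad2 in the genome, by 0.26 ± 0.07. Mx1 and Mx2, dynamin-like GTPases that block viral particles, had differences of 0.01 ± 0.04 and 0.03 ± 0.11 and were not called. Their control and knockdown means were low, at percentiles 4.47 and 4.8 for Mx1 and 14.3 and 14.8 for Mx2. A difference at such levels could have gone unseen.

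All 4 members that act in ADP-ribosylation and ISG15 conjugation were higher. Parp9 and Dtx3l encode partners in a ubiquitin ligase complex. Parp9 read 7.90, 7.96, 7.94 and 7.79 in control cells and 9.11, 9.23, 9.24 and 9.41 in knockdown cells, and Dtx3l read 7.85, 7.98, 7.89 and 7.95 in control cells and 8.85, 9.02, 9.15 and 9.29 in knockdown cells. Neither overlapped between the groups. The differences were 1.35 ± 0.07 for Parp9 (limma adjusted p = 3.18e-11) and 1.16 ± 0.08 for Dtx3l (limma adjusted p = 2.54e-09). Parp14, a mono-ADP-ribosyltransferase, was higher by 1.25 ± 0.11, and Trim25, the ubiquitin ligase that acts on RIG-I, by 0.43 ± 0.04.

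The interferon-inducible GTPases went different ways. Irgm1, which acts in autophagy and in defence against intracellular bacteria, read 11.22, 11.45, 11.36 and 11.39 in control cells and 9.64, 9.86, 9.81 and 9.99 in knockdown cells. Every knockdown array lay more than 1 log2 unit below every control array, a difference of -1.53 ± 0.07 (2.89-fold lower, limma adjusted p = 1.22e-11). Gbp3, a guanylate-binding protein, was higher by 0.76 ± 0.06 (limma adjusted p = 3.15e-08), and Iigp1 was not called (0.10 ± 0.06).

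The 6 remaining members were all higher. Lgals3bp, a secreted glycoprotein that binds galectins, read 7.89, 8.05, 7.8 and 8.14 in control cells and 10.05, 10.13, 10.20 and 10.36 in knockdown cells. Ifi27, whose product lies in mitochondrial and nuclear membranes, read 8.02, 8.10, 7.92 and 7.93 in control cells and 9.99, 10.10, 10.11 and 10.08 in knockdown cells. For each gene the groups were far apart, with differences of 2.21 ± 0.10 (limma adjusted p = 7.24e-12) and 2.08 ± 0.06 (limma adjusted p = 1.66e-14). Rtp4 was higher by 1.39 ± 0.12, Samd9l, which restrains translation, by 0.93 ± 0.13, Xaf1, a pro-apoptotic factor, by 0.52 ± 0.06, and Ifi35 by 0.35 ± 0.06.

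**Figure D2:**
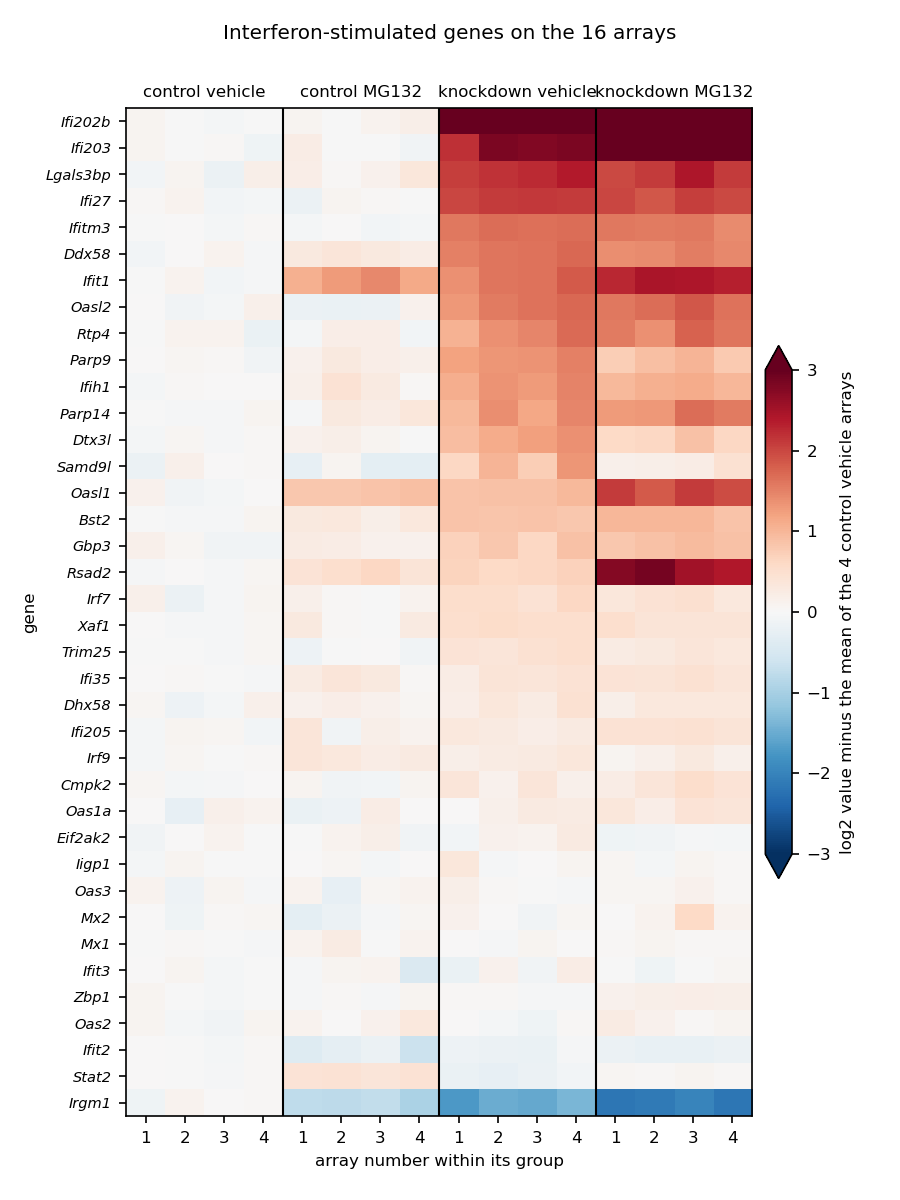
Each member (rows) on each of the 16 arrays (columns, by group), as the log2 value minus the mean of the 4 control vehicle arrays, with colours saturating at 3 in either direction. The knockdown arrays of both treatments are red for most members and blue for Irgm1, while Rsad2, Oasl1 and Ifit1 darken with MG132.

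The arrays of the knockdown line were not equal in these genes. The median over the members was 7.38 to 7.45 on control vehicle arrays and 7.95, 8.43, 8.45 and 8.60 on knockdown vehicle arrays 1 to 4. Knockdown vehicle array 1 held the lowest value of its group for 22 of the 38 members, and array 4 held the highest for 26. Array 1 also lay low on the within-group gradient (score -12.99), whose part in these values was not tested. Without the 5 arrays lowest on the gradient, a choice made after the data were seen, 25 members were higher and 2 lower with vehicle.

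Of 9 macrophage markers 2 were higher in the knockdown line with vehicle, which is 22.2% beside 21.5% of all genes, Cd14 by 0.79 ± 0.07 and Cd68 by 0.12 ± 0.04, while Ptprc, the common leukocyte antigen, had a difference of -0.12 ± 0.06 (limma adjusted p = 0.186). The macrophage median per array was 6.23 to 6.38 in control and 6.19 to 6.43 in knockdown cells with vehicle, and 6.31 to 6.42 and 6.35 to 6.42 with MG132. Of 5 markers of lymphocytes and plasmacytoid dendritic cells 0 were called by limma with vehicle, 0 also at an unadjusted p under 0.05, and their medians per array were 5.37 to 5.56 in control and 5.26 to 5.59 in knockdown cells. With MG132 1 of these 5, Siglech, was lower (-0.15 ± 0.05, limma adjusted p = 0.0291). The part of such cells in the members' differences was not tested. In bulk RNA, fewer cells of a type and less RNA per cell cannot be told apart.

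Beside the members stood a list of 42 pathway genes, of which 36 were measured. It holds interferons, receptors and their kinases, transcription factors and sensing adaptors, and also inhibitors of the pathway, so not all of it lies upstream of the members. With vehicle 17 of these (47.2%) were higher and 5 (13.9%) lower in the knockdown line, beside 21.5% and 17.9% of all genes. Of the 7 interferon genes measured 0 were called between the lines by limma in either treatment, and 0 also at an unadjusted p under 0.05. Ifnb1, the interferon beta gene, read 6.16, 6.26, 6.09 and 6.08 in control cells and 6.19, 6.07, 6.08 and 5.88 in knockdown cells with vehicle. Its groups overlapped, and the difference was -0.09 ± 0.07 (limma adjusted p = 0.367). Arrays of this kind can miss dim transcripts, and secreted interferon was not measured.

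The receptor chains were split. Ifnar1, a chain of the type I receptor, was lower with vehicle (-0.25 ± 0.04, limma adjusted p = 0.000152), and Ifnar2, the other chain, was higher by 0.19 ± 0.03 (limma adjusted p = 0.00019). Ifngr2, of the interferon gamma receptor, was lower (-0.42 ± 0.03). Among the receptor kinases Jak2 was higher by 0.56 ± 0.06, Jak1 by 0.17 ± 0.03 and Tyk2 by 0.14 ± 0.05.

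All 6 of the transcription factors measured differed between the lines. Irf5 read 7.47, 7.32, 7.43 and 7.44 in control cells and 9.24, 9.22, 9.28 and 9.19 in knockdown cells, and Irf1 read 9.0, 9.22, 9.06 and 9.09 in control cells and 10.01, 10.14, 10.09 and 10.20 in knockdown cells. The groups did not overlap for either factor, with differences of 1.82 ± 0.06 for Irf5 (limma adjusted p = 7.36e-14) and 1.02 ± 0.06 for Irf1 (limma adjusted p = 2.45e-10). Irf2 and Stat3 were higher by 0.29 ± 0.04 and 0.45 ± 0.04, and Irf8 and Irf3 had differences of -0.62 ± 0.06 and -0.18 ± 0.04. Among the adaptors and kinases of nucleic acid sensing, Ikbke, Tlr3, Mavs and Myd88 were higher, by 0.58 ± 0.05, 0.54 ± 0.06, 0.30 ± 0.04 and 0.15 ± 0.03. Usp18, which removes ISG15 and damps the receptor, was higher by 0.93 ± 0.08 (limma adjusted p = 7.95e-08).

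**Figure D3:**
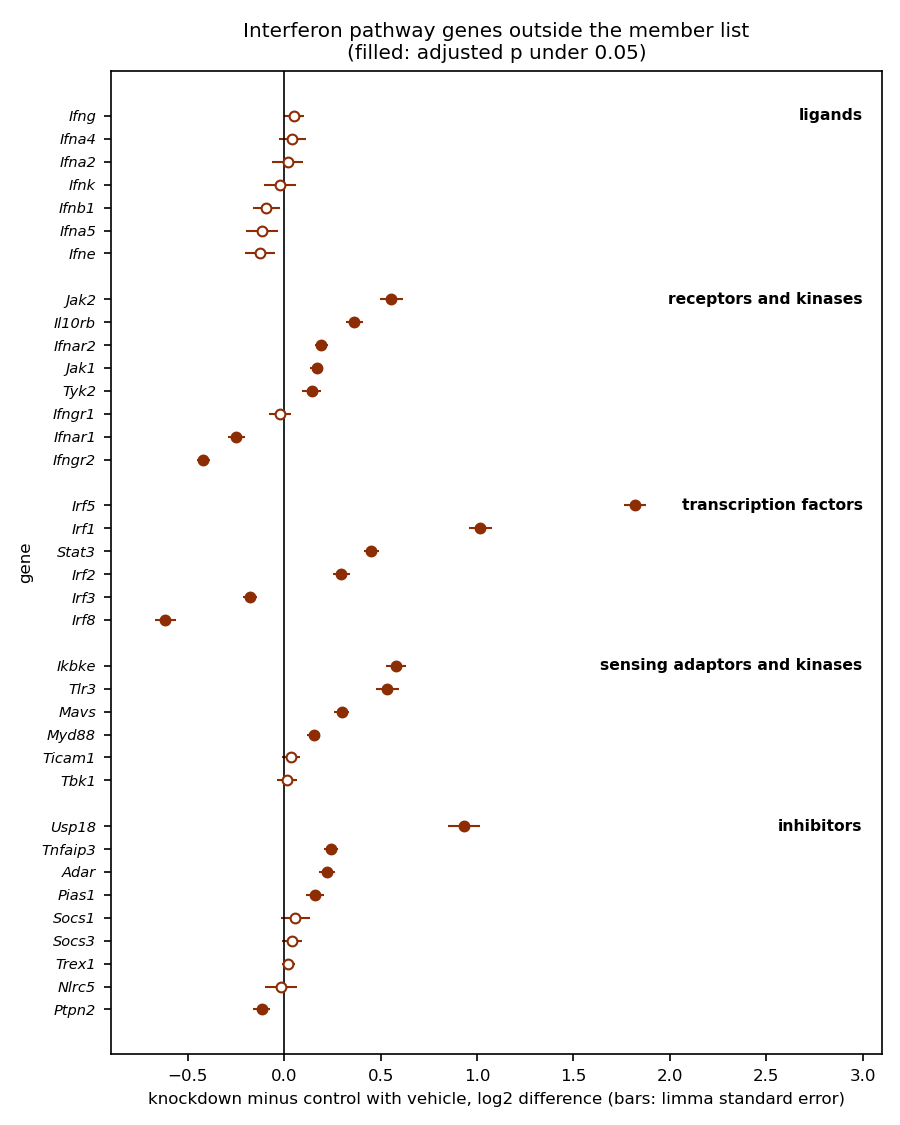
Log2 difference of knockdown minus control cells with vehicle (x axis) for the 36 pathway genes measured (y axis, by role), filled where the limma adjusted p is under 0.05, with bars for the standard error. The 7 interferon genes lie near 0 and open, and Irf5 lies farthest right at 1.82.

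With MG132 most members were again higher in the knockdown line. Of the 38 members 27 were higher and 2 were lower in the knockdown line (limma, adjusted p under 0.05), where 17.7% of all genes tested were higher and 20.3% were lower. The median log2 difference was 0.38 over the members and -0.00 over all genes. At 2-fold or more, 12 members were higher and 1 was lower, among 286 genes that were higher and 197 that were lower in all. Both comparisons between the lines use different arrays, and 24 members were higher in both, while Stat2 and Irgm1 were lower in both. The same lines stand in both comparisons, and how many of all genes were called alike in both was not counted. Oas1a, Mx2 and Zbp1 passed the threshold only with MG132, and Dhx58 and Irf9 only with vehicle, which is no test that the differences were unequal. Ifit2, Ifit3, Oas2, Oas3, Mx1, Iigp1 and Eif2ak2 were called in neither.

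Ifi202b and Ifi203 again had the largest measured differences between the lines with MG132. Ifi202b read 4.50, 4.41, 4.53 and 4.59 on control MG132 arrays 1 to 4 and 9.26, 9.02, 8.84 and 8.95 on knockdown MG132 arrays 1 to 4. Ifi203 read 5.92, 5.69, 5.67 and 5.58 in control cells and 10.28, 10.07, 10.11 and 10.15 in knockdown cells. Neither gene overlapped between the lines, with differences of 4.51 ± 0.09 (limma adjusted p = 3.45e-16) and 4.44 ± 0.11 (limma adjusted p = 7.25e-15). Their control means lay at percentiles 2.02 and 11.5 of all genes, so that of Ifi202b again has no exact fold. Rsad2 differed by 2.16 ± 0.08 (4.46-fold, limma adjusted p = 5.83e-13), Ifi27 by 2.00 ± 0.06, Lgals3bp by 1.97 ± 0.10, Oasl2 by 1.79 ± 0.09 and Ifitm3 by 1.57 ± 0.04. On the low side, Irgm1 differed by -1.30 ± 0.07 (limma adjusted p = 1.38e-10) and Stat2 by -0.36 ± 0.04 (limma adjusted p = 4.05e-07). Irf9 read 9.15, 9.11, 9.02 and 9.07 in control and 8.88, 8.95, 9.09 and 8.94 in knockdown cells, groups that overlapped, with a difference of -0.12 ± 0.05 (limma adjusted p = 0.0601). Without control MG132 array 3, Irf9 and Mx1 were also called lower, so that 4 members were. The calls of Mx2 (limma adjusted p = 0.0244) and Ifi35 (limma adjusted p = 0.0362), with overlapping arrays, were lost in at least 1 alternative.

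Of the pathway genes, 13 of 36 (36.1%) were higher and 4 (11.1%) were lower with MG132, beside 17.7% and 20.3% of all genes. Irf5 was higher by 1.30 ± 0.06, Jak2 by 0.78 ± 0.06, Tnfaip3, an inhibitor of innate immune signalling, by 0.61 ± 0.04, Irf1 by 0.55 ± 0.06 and Usp18 by 0.50 ± 0.08. Ifnar1 was lower (-0.38 ± 0.04), and Tyk2, higher with vehicle, was here lower (-0.24 ± 0.05, limma adjusted p = 0.000763). Of the macrophage markers 1 of 9 (11.1%) was higher, Cd14 by 1.05 ± 0.07.

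MG132 raised a small set of these genes in control cells. Of the 38 members 11 rose and 2 fell (limma, adjusted p under 0.05), where 16.8% of all genes tested rose and 19% fell. The median change was 0.09 over the members and 0.03 over all genes. At 2-fold or more, 1 member, Ifit1, rose and 0 fell, among 61 genes that rose and 67 that fell in all. The vehicle arrays of control cells serve both here and in the comparison of the lines with vehicle, so these comparisons are not independent.

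Ifit1 rose from 7.39, 7.51, 7.32 and 7.36 on the vehicle arrays to 8.45, 8.68, 8.84 and 8.54 on the MG132 arrays. The groups did not overlap, and the change was 1.23 ± 0.09 (2.35-fold, limma adjusted p = 8.2e-09). Oasl1 rose from 8.55, 8.32, 8.36 and 8.43 to 9.22, 9.22, 9.27 and 9.31, a change of 0.84 ± 0.06 (limma adjusted p = 6.34e-09). Rsad2 went from 6.55, 6.60, 6.55 and 6.66 to 7.01, 7.09, 7.21 and 6.97, again without overlap, and rose by 0.48 ± 0.08 (limma adjusted p = 8.27e-05). Of the other Ifit genes, Ifit2 fell (-0.37 ± 0.07, limma adjusted p = 0.00055), and Ifit3 read 7.28, 7.39, 7.42 and 6.88 and did not pass (-0.07 ± 0.10, limma adjusted p = 0.671).

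Subunits of the driving complex rose in control cells. Stat2 went from 9.05, 9.02, 8.99 and 9.06 to 9.45, 9.47, 9.40 and 9.46, with every MG132 array above the vehicle arrays, a change of 0.41 ± 0.04 (limma adjusted p = 8.71e-08). Irf9 rose by 0.30 ± 0.05 (limma adjusted p = 9.92e-05), and the change of Irf7 was 0.07 ± 0.06 (limma adjusted p = 0.435). The sensors Ddx58 and Ifih1 rose by 0.29 ± 0.05 and 0.22 ± 0.08, tetherin's gene Bst2 by 0.28 ± 0.04, Ifi35 by 0.23 ± 0.06, Gbp3 by 0.19 ± 0.06 and Parp9 by 0.19 ± 0.07. Irgm1 fell from 11.22, 11.45, 11.36 and 11.39 to 10.59, 10.58, 10.62 and 10.41, a change of -0.81 ± 0.07 (limma adjusted p = 8.84e-08). The calls of Ifih1 (limma adjusted p = 0.0472), Gbp3 and Parp9 were lost when the arrays were quantile-normalised again or centred on their medians, and that of Ifih1 in 16 of 25 alternatives in all. With centring 8 members rose and 2 fell, beside 10.8% and 23.2% of all genes.

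In the pathway list 10 of 36 genes (27.8%) rose and 9 (25%) fell in control cells, beside 16.8% and 19% of all genes. Irf1 rose by 0.70 ± 0.06 (limma adjusted p = 5.37e-08), Myd88, an adaptor of Toll-like receptors, by 0.61 ± 0.03, Adar, which edits double-stranded RNA, by 0.42 ± 0.04, and Irf5 by 0.32 ± 0.06. Tnfaip3, Ifngr2 and Irf3 fell, with changes of -0.47 ± 0.04, -0.41 ± 0.03 and -0.37 ± 0.04. Among the 7 interferon genes 1, Ifng, was called higher with MG132 (0.16 ± 0.05, limma adjusted p = 0.0207), and the change of Ifnb1 was -0.03 ± 0.07. The Ifng means were 7.49 with vehicle and 7.65 with MG132, below the array medians of 7.71 to 7.82. A signal of Ifng above background is not shown.

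In knockdown cells the share of members that MG132 changed was close to that of all genes. Of the 38 members 8 (21.1%) rose and 9 (23.7%) fell (limma, adjusted p under 0.05), where 16.4% of all genes tested rose and 24.3% fell. The median change was 0.03 over the members and over all genes alike. At 2-fold or more, 4 members rose and 0 fell, among 49 genes that rose and 85 that fell of all 19938. With the arrays centred on their medians 6 members rose and 11 fell, beside 9.19% and 29.1% of all genes.

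**Figure D4:**
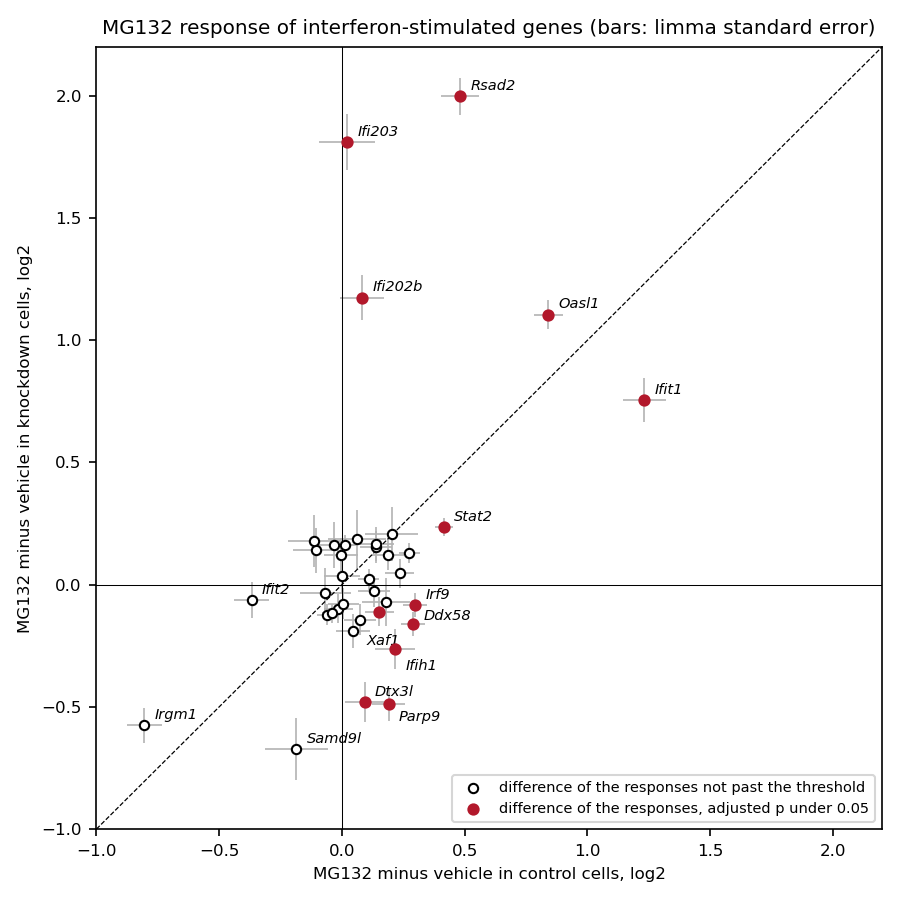
MG132 minus vehicle on the log2 scale in control cells (x axis) and in knockdown cells (y axis), 1 point per member, with bars for the limma standard error and a dashed line where both are equal. Filled points have a difference of the responses past the threshold: Rsad2, Ifi203 and Ifi202b lie far above the line, and Parp9, Dtx3l, Ifih1, Ddx58 and Ifit1 lie below it.

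The 4 members past 2-fold were Rsad2, Ifi203, Ifi202b and Oasl1. Rsad2 went from 7.25, 7.18, 7.20 and 7.29 on the vehicle arrays to 9.34, 9.45, 9.12 and 9.0 on the MG132 arrays. The groups lay more than 1 log2 unit apart, and the change was 2.00 ± 0.08 (3.99-fold, limma adjusted p = 6.74e-12). Ifi203 rose from 7.88, 8.52, 8.46 and 8.51 to 10.28, 10.07, 10.11 and 10.15, by 1.81 ± 0.11 (3.51-fold, limma adjusted p = 1.66e-09). Ifi202b rose from 7.61, 7.95, 7.75 and 8.06 to 9.26, 9.02, 8.84 and 8.95, by 1.18 ± 0.09 (2.26-fold, limma adjusted p = 1.58e-08). Both p200 genes thus separated without overlap, and the change of Ifi205 was 0.17 ± 0.07 (limma adjusted p = 0.0689). Oasl1 rose by 1.10 ± 0.06 (limma adjusted p = 2.84e-10), Ifit1 by 0.76 ± 0.09 (limma adjusted p = 2.34e-06) and Stat2 by 0.23 ± 0.04 (limma adjusted p = 4.81e-05). Bst2 and Zbp1 rose by 0.13 ± 0.04 and 0.16 ± 0.04, calls that were lost with centred arrays.

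The 9 members that fell in knockdown cells (23.7%, beside 24.3% of all genes) were of several roles. Parp9 fell from 9.11, 9.23, 9.24 and 9.41 to 8.64, 8.80, 8.91 and 8.68, and Dtx3l from 8.85, 9.02, 9.15 and 9.29 to 8.52, 8.55, 8.79 and 8.53. Neither overlapped, with changes of -0.49 ± 0.07 (limma adjusted p = 1.23e-05) and -0.48 ± 0.08 (limma adjusted p = 0.000101). Samd9l and Irgm1 changed by -0.67 ± 0.13 (limma adjusted p = 0.000374) and -0.57 ± 0.07 (limma adjusted p = 3.95e-06). Ddx58 read 10.59, 10.62, 10.72 and 10.64 with MG132, a change of -0.16 ± 0.05 (limma adjusted p = 0.013), and Ifih1 read 8.48, 8.56, 8.62 and 8.51, a change of -0.26 ± 0.08 (limma adjusted p = 0.0158). For both sensors the MG132 arrays overlapped the vehicle arrays. Trim25, Eif2ak2 and Ifitm3 changed by -0.12 ± 0.04, -0.19 ± 0.07 and -0.12 ± 0.04. Without knockdown vehicle array 4, which held the highest values of its group for most members, Ddx58, Ifih1, Trim25, Eif2ak2 and Ifitm3 were no longer called and 4 members fell.

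In the pathway list 7 of 36 genes (19.4%) rose and 15 (41.7%) fell in knockdown cells, beside 16.4% and 24.3% of all genes. Myd88 rose by 0.57 ± 0.03, Adar by 0.43 ± 0.04 and Irf1 by 0.23 ± 0.06. Tlr3, which senses double-stranded RNA in endosomes, fell (-0.74 ± 0.06, limma adjusted p = 3.27e-08), as did Il10rb (-0.47 ± 0.04), Stat3 (-0.40 ± 0.04), Usp18 (-0.37 ± 0.08) and Irf5 (-0.20 ± 0.06). Of the 7 interferon genes 0 were called by limma and 1, Ifna5, had an unadjusted p under 0.05, and the change of Ifnb1 was 0.04 ± 0.07.

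**Figure D5:**
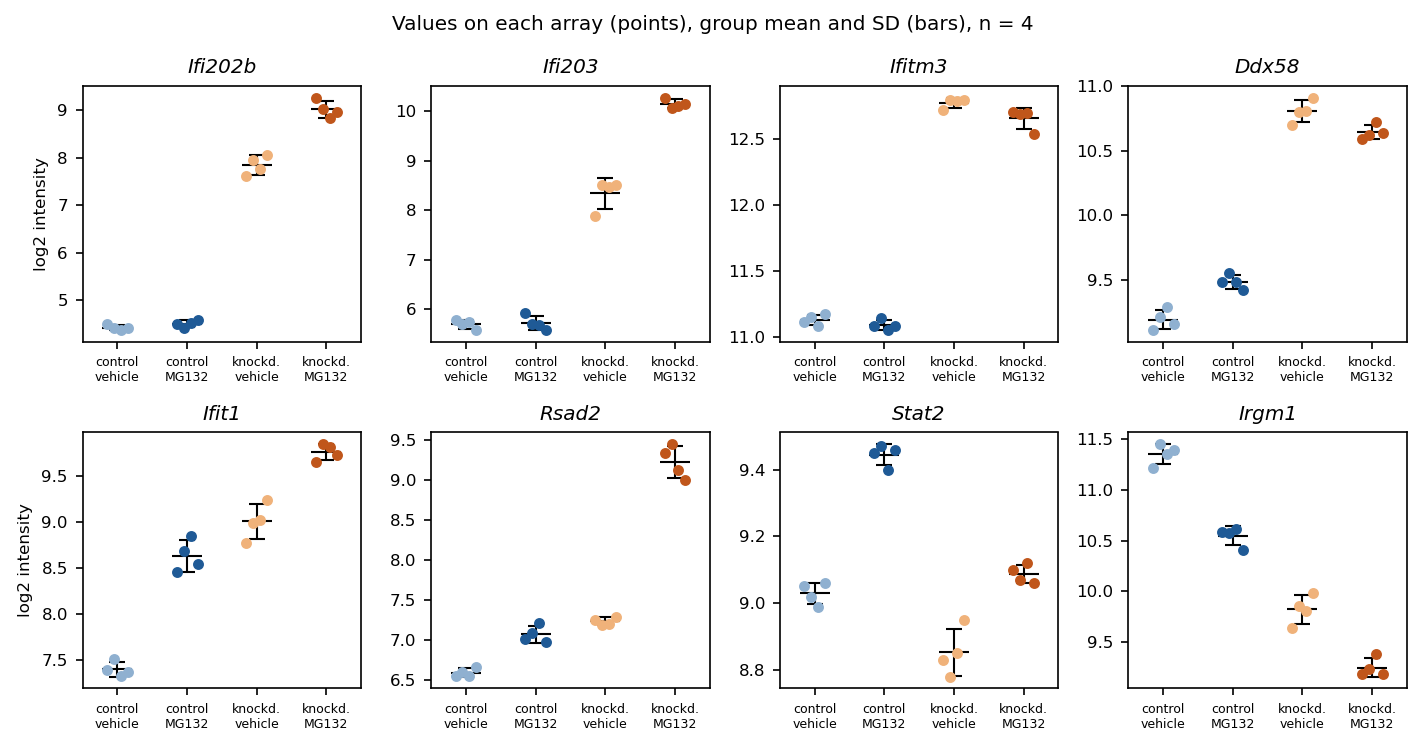
Log2 intensity of 8 members on each array (points), with the mean and SD of the 4 arrays of each group (bars), in the order control vehicle, control MG132, knockdown vehicle, knockdown MG132. Ifi202b and Ifi203 are high only on knockdown arrays and highest with MG132, and Stat2 and Irgm1 are lower in knockdown cells within each treatment.

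The MG132 responses of the lines were compared directly, as the difference of the responses, knockdown minus control. Of the 38 members 4 responded more positively and 8 more negatively in the knockdown line (limma, adjusted p under 0.05), where 4.45% of all genes tested were higher and 10.1% were lower in this sense. The median was -0.07 over the members and -0.01 over all genes. After a second quantile normalisation the counts were 6 and 7.

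The more positive responses were those of Ifi203 (1.79 ± 0.16, limma adjusted p = 2.34e-06), Rsad2 (1.52 ± 0.11, limma adjusted p = 2.6e-07), Ifi202b (1.09 ± 0.13, limma adjusted p = 3.04e-05) and Oasl1 (0.27 ± 0.08, limma adjusted p = 0.0432). The change in control cells was 0.02 ± 0.11 for Ifi203 and 0.48 ± 0.08 for Rsad2. For Ifi202b it was 0.08 ± 0.09, at a level so dim that a change in control cells could have gone unseen, and its difference of responses rests on the knockdown arrays. The more negative responses were those of Parp9 (-0.68 ± 0.09, limma adjusted p = 0.000163), Dtx3l (-0.57 ± 0.11, limma adjusted p = 0.00255), Ifih1 (-0.48 ± 0.12, limma adjusted p = 0.00965) and Ifit1 (-0.48 ± 0.13, limma adjusted p = 0.0166). The others were Ddx58 (-0.45 ± 0.07, limma adjusted p = 0.000356), Irf9 (-0.38 ± 0.07, limma adjusted p = 0.00133), Xaf1 (-0.26 ± 0.08, limma adjusted p = 0.042) and Stat2 (-0.18 ± 0.05, limma adjusted p = 0.0264). Ddx58, Ifih1 and Parp9 were called as rising in control cells and as falling in knockdown cells. Of 25 alternatives, the rise was called in 25 for Ddx58, 17 for Parp9 and 9 for Ifih1, and the falls of Ddx58 and Ifih1 were lost without knockdown vehicle array 4. Of 24 alternatives for the difference of the responses, Stat2 kept its call in 14, Oasl1 in 11 and Xaf1 in 9.

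The 2 responses used different arrays, and 5 members rose in both, Ifit1, Rsad2, Oasl1, Stat2 and Bst2, while Irgm1 fell in both. In 17 of the 38 members neither response passed the threshold. How many of all genes rose in both, fell in both or passed in neither was not counted. Among pathway genes 1 of 36 (2.78%), Tnfaip3, responded more positively (0.37 ± 0.05, limma adjusted p = 0.000156) and 7 (19.4%) more negatively, beside 4.45% and 10.1% of all genes, among them Irf5 (-0.52 ± 0.08), Irf1 (-0.47 ± 0.08), Tlr3 (-0.47 ± 0.09), Usp18 (-0.43 ± 0.12) and Tyk2 (-0.38 ± 0.07).

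Members with and without the letters of the response element in their windows are described side by side, without a test. With vehicle, 9 of the 15 members with the letters GAAANNGAAA were higher in the knockdown line and 2 were lower, with a median difference of 0.64, and 12 of the 13 without them were higher and 0 were lower, with a median of 0.53. With MG132 the counts were 10 higher and 2 lower of 15, and 11 higher and 0 lower of 13. In control cells MG132 raised 7 and lowered 1 of the 15 with the letters, and raised 3 and lowered 1 of the 13 without them. In knockdown cells it raised 5 and lowered 5 of the 15, and raised 2 and lowered 3 of the 13. Of all genes 21.5% were higher and 17.9% lower between the lines with vehicle, and 17.7% and 20.3% with MG132. MG132 raised 16.8% and lowered 19% of all genes in control cells, and raised 16.4% and lowered 24.3% in knockdown cells. Both members that were lower in the knockdown line, Stat2 and Irgm1, held the letters, as did Ifit1, Rsad2 and Ifi203 among the higher ones and Ifit3 among those not called.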

How the data were processed

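Affymetrix whole-transcript arrays measured total RNA from mouse embryonic fibroblasts, 16 plates with 1 array each, and the groups were taken from the sample titles. The authors deposited log2 probe set intensities. The submitters' processing notes name RMA and Partek, without versions or settings (not given in the sources used here). RMA makes array distributions alike, so a common shift of most genes could not be seen, and changes of dim and very bright probe sets can be compressed. Arrays have no read depth, and their number limits the precision.

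Of 35556 probe sets 23410 were listed in the platform annotation, 21789 of them with 1 gene symbol and 1621 with several, and 21698 were found by gene ID in the RefSeq gene table of GRCm38.p6, with 0 symbols changed. The probe set with the highest mean over 16 arrays stood for each gene, and 19938 genes were tested. The model had 4 group means over all 16 arrays and 12 residual degrees of freedom, with no filter and no block. It was fitted by lmFit and eBayes of limma 3.58.1 (R 4.3.3), 5 contrasts were tested on both sides, and p-values were adjusted over all genes by Benjamini-Hochberg. The fit was tested on simulated data.

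The members, roles, pathway list and marker lists were chosen with earlier results of these data known. Named per comparison were up to 8 called members with the largest change in each direction, and always Stat2, Irf9, Irf7, Ddx58, Ifih1, Ifit1, Isg15 (not measured) and Rsad2. The other members are given by role group, and the pathway and marker genes singled out beyond this rule were named after their values were seen. Alternatives were a second quantile normalisation, centring on array medians, a filter at the 25th percentile, averaging over probe sets, a fit to the compared groups alone, a trended robust prior, a replicate block, and the removal of each array in turn. Leaving out the 5 arrays lowest on the within-group gradient, or 4 of them, was added after the data were seen.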

Additional observations from a re-analysis of the deposited data

Results flagged for a closer look

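In 12 of 152 combinations of a member and a group, 1 array lay apart from the other 3 of its group by Dixon's test, where chance gives about 1 in 20. On knockdown vehicle array 1, Ifi203 read 7.88 (the others 8.46 to 8.52) and Ifitm3 read 12.72 (12.79 to 12.80), and on knockdown vehicle array 4, Oasl1 read 9.39 (9.27 to 9.29). On control MG132 array 2, Oas3 read 7.10 (7.41 to 7.46) and Samd9l read 6.88 (6.5 to 6.56), and on control MG132 array 4, Oasl2 read 7.63 (7.31 to 7.34). On knockdown MG132 array 1, Dhx58 read 7.38 (7.53 to 7.54) and Xaf1 read 7.69 (7.57 to 7.58). On the other knockdown MG132 arrays, Mx1 read 4.95 on array 2 (the others 4.90), Dtx3l read 8.79 on array 3 (8.52 to 8.55), and on array 4 Bst2 read 9.75 (9.89 to 9.90) and Ifitm3 read 12.54 (12.69 to 12.71). These values are small against the line differences of Ifi203 and Ifitm3, whose groups did not overlap.

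The MG132 response differed between the lines, by limma's test of the difference of the responses (knockdown minus control, adjusted p under 0.05), for 12 members. It was more positive in knockdown cells for Ifi203 (1.79), Rsad2 (1.52), Ifi202b (1.09) and Oasl1 (0.265). Ifi202b was so dim in control cells that a change there could have gone unseen, and Ifi203 was also low there. The response was more negative for Parp9 (-0.68), Dtx3l (-0.57), Ifih1 (-0.48), Ifit1 (-0.48), Ddx58 (-0.45), Irf9 (-0.38), Xaf1 (-0.26) and Stat2 (-0.18). Ifit1 rose in both lines, from a higher level in knockdown cells.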

How the results depend on the processing

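Counts of called members over the processing alternatives and the removal of low-gradient arrays were 23 to 27 higher and 2 to 3 lower for the lines with vehicle, 23 to 28 and 2 to 3 with MG132, 8 to 12 and 2 to 2 for MG132 in control cells, 6 to 10 and 8 to 11 in knockdown cells, and 3 to 6 and 6 to 11 for the difference of the responses. Leaving out each array in turn gave 26 to 27 and 2 to 3, 25 to 28 and 2 to 4, 9 to 11 and 2 to 2, 7 to 9 and 4 to 10, and 3 to 6 and 6 to 9 in the same order. The low count of 4 came without knockdown vehicle array 4 and the high count of 4 without control MG132 array 3, and for both the cause was not tested. Same-numbered arrays correlated in their deviations from the group means at -0.50 to 0.40, with 10 of 24 pairs above 0.1. Of the 8 pairs of vehicle and MG132 arrays of 1 line 6 lay above 0.1 (range -0.04 to 0.33), and 8 of 16 arrays correlated best with their own number within their line. Since not every pair lay above 0.1 the numbers were not taken as pairs, and with the replicate block the counts were 27 and 2, 27 and 2, 12 and 2, 10 and 9, and 4 and 9 in that order. Of the members called, 27 of 28, 27 of 29, 10 of 13, 10 of 17 and 9 of 12 were called in every alternative that tested them. The filter left 32 members, and fitting only the groups compared gives no value for the difference of the responses. Among the named values no sign was reversed, 77 alternative values fell short of the threshold that the reported value passed, and 10 passed it anew. Dim probe sets limit Mx1, Iigp1 and Ifi205, with means under the 10th percentile of genes, and Ifi202b in control cells, at percentiles 1.79 (vehicle) and 2.02 (MG132). Ifi203 was also low in control cells, at percentiles 11.7 (vehicle) and 11.5 (MG132).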
